A study of Mus musculus with 6 samples.

Results

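The mRNAs of 10 glycolytic enzymes (Gpi1, Aldoa, Tpi1, Gapdh, Pgk1, Pgam1, Eno1, Eno3, Pkm and Ldha) were examined in peak lists of RNA that co-precipitated with Ago2 from mouse muscle cells. They were chosen by name from 10289 protein-coding genes that had a peak over an annotated exon in at least 1 of 5 libraries, and all 10 had such a peak. Merging overlapping peaks of the 5 libraries gave 35 intervals over exons of these genes, out of 37918 pairs of an interval and a coding gene. A peak is a stretch of genome where the caller found more reads than in the local background, and its value is −log10 p, listed from 20 upward. The value rises with the excess of reads, and therefore with the abundance of an RNA and the depth of a library as well as with its share in the precipitate. No library of total RNA was used here, so abundance and Ago2 binding cannot be told apart.

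The study searched for mRNAs bound by the RNA-induced silencing complex when miR-222, a miRNA that falls during muscle differentiation, is raised. Primary mouse satellite cells (MSC), the stem cells of skeletal muscle, were kept in differentiation medium for 30 h as MSC myocytes and transfected with a miR-222 duplex (miR-222-IP) or with siGFP, a duplex against a protein that these cells lack (control-IP). After 16 h the cells were lysed and RNA was recovered with an anti-Ago2 antibody. The labels give 10 nM duplex for both groups, whereas the study's methods give a higher dose, and the labels name no strain, age or genotype of the mice.

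There were 2 experiments, each with 2 control-IP libraries and 1 miR-222-IP library. Experiment 1 held miR-222-IP replicate 1 with control-IP replicates 1 and 2, and experiment 2 held miR-222-IP replicate 2 with control-IP replicates 3 and 4. The title of miR-222-IP replicate 2 reads miR22, while its condition label reads miR222. Nothing in the labels says whether libraries of 1 experiment came from separate cultures, so their spread may be technical. The kit does not mark the strand of the RNA, and genes that overlap on opposite strands cannot be told apart.

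Control-IP replicate 3 stood apart, with 3619 peaks of a median width of 32103 bp against 362 to 411 bp in the other libraries, and is given separately. The remaining control-IP lists held 10579, 20000 and 17892 peaks (replicates 1, 2 and 4), and the miR-222-IP lists held 21074 and 37762 (replicates 1 and 2). Wherever values of the control-IP or miR-222-IP libraries are given below, they follow this order. Of 8 myocyte markers, 6, 7 and 6 had a peak in the control-IP libraries and 7 and 8 in the miR-222-IP libraries, with a summed −log10 p from 253 to 1068. All 3 leukocyte markers had a peak in at least 1 library. Their sums were 358, 388 and 508 in the control-IP libraries and 453 and 482 in the miR-222-IP libraries. The myocyte sums were 286, 257 and 253, and 406 and 1068, lower in every library but miR-222-IP replicate 2. No peak lay over the adipocyte or glial markers. Pax7 and Myf5, which mark satellite cells before differentiation, had none, and Myod1 had one in all 5 libraries. Sums over the fibroblast markers reached 41.8, and over the endothelial markers 106. The part of these cell types in the results below was not tested.

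Glycolysis turns glucose into pyruvate in the cytoplasm and yields ATP without oxygen. Its later steps are carried by very abundant enzymes, several of which have muscle forms that rise when myoblasts fuse. Many of these genes left processed pseudogenes in the genome, intronless copies of the mRNA whose sequence can be close to that of the parent, and a short read from such a stretch fits parent and copy alike.

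Silencing by a miRNA starts with pairing of its seed, bases 2 to 8, to a complementary site in an mRNA. Mature sequences of the transfected miRNA, of miR-221, which shares its seed, and of miRNAs known in muscle or widely expressed were read from the RefSeq table (GRCm38.p6) and are shown because the site search rests on them, with the seed in capitals.
mmu-miR-222-3p: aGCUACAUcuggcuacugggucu
mmu-miR-221-3p: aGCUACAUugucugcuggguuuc
mmu-miR-206-3p: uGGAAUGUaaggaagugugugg
mmu-miR-133b-3p: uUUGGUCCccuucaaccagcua
mmu-let-7a-5p: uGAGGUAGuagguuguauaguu

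The letters searched, on the strand of the gene, were ATGTAGC for miR-222 and miR-221, ACATTCC for miR-206, GGACCAA for miR-133b and CTACCTC for let-7a. In the 10 representative transcripts these 4 words occurred 3 times. Each of the 3 sites lay under a peak of at least 1 library, and they are shown on the mRNA strand with the site in capitals.
Eno3 coding sequence, miR-222: gatcggcatggATGTAGCtgcgtctgaat
Pgk1 3′UTR, miR-222: ctctctgacgtATGTAGCctctggttagc
Gpi1 coding sequence, miR-133: gggggaaccagGGACCAAtggtcaacatg

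The Eno3 site was at chr11:70661063-70661069 in exon 8 of 12, on the plus strand (GRCm38, mm10). Of the 5 libraries, a peak covered it in miR-222-IP replicate 2 alone, the longest list, at a −log10 p of 81.0. A wide peak of control-IP replicate 3 also lay over it. The Pgk1 site was at chrX:106203573-106203579 in the last exon, on the plus strand, and peaks of all 5 libraries covered it. The Gpi1 site was at chr7:34205841-34205847 in exon 13 of 18, on the minus strand, under peaks of control-IP replicate 4 (22.9) and miR-222-IP replicate 2 (33.8).

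Counted over intervals, the miR-222 word was found in 3 of the 35 (8.57%), against 2.63% of all interval and gene pairs. Within exon bases it was found in 2, against 1.99% of all pairs. The further occurrences were intronic, at chr9:59678228-59678234 beside exon 10 of Pkm and at chrX:106203181-106203187 before the last exon of Pgk1. The miR-206 word was found in 2 intervals (3.51% of all pairs) and in no exon base (2.89%), and the miR-133 word in 1 interval (3.26%), which was exonic (2.89%). The let-7 word was found in none (3.77% of all pairs, 3.11% in exon bases). A word match is a description of sequence and not a measured binding site.

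Peaks over these genes recurred across the libraries. A peak over an exon was present in all 5 libraries for 8 of the 10 genes, where the share over all coding genes with a peak was 40.4%. By library, 9, 10 and 9 genes had a peak in the control-IP lists, and 10 and 10 in the miR-222-IP lists. The shares over all coding genes were 45.6%, 74.3% and 63.7% in those control-IP libraries and 70.8% and 95.3% in the miR-222-IP libraries. The exceptions were Gapdh, with no peak in control-IP replicate 1, and Eno3, with none in control-IP replicate 4. In all there were 100 peaks, of which miR-222-IP replicate 2, the longest list, held 35 and the other 4 libraries 14 to 17 each.

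Gpi1, Aldoa and Tpi1 encode the enzymes that isomerise glucose 6-phosphate, split fructose bisphosphate and interconvert the resulting triose phosphates. The highest exonic −log10 p of Gpi1 was 71.1, 101 and 89.2 in the control-IP libraries, and 79.4 and 159 in the miR-222-IP libraries. Aldoa had 93.8, 116 and 91.3 in the control-IP libraries and 103 and 140 in the miR-222-IP libraries. For both genes miR-222-IP replicate 2 was the highest library, and miR-222-IP replicate 1 lay within the range of the control-IP libraries. Tpi1 had 41.2, 113 and 54.0 in the control-IP libraries and 49.4 and 125 in the miR-222-IP libraries, so 1 library of each group stood well above the rest.

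Gpi1 had 8 intervals, the most of any of the genes. Those over exon 4, exons 5 and 6, exon 12 and exons 17 and 18 were called in all 5 libraries. The one over exons 5 and 6 was the highest of the gene in miR-222-IP replicate 1 and in control-IP replicates 1 and 4, whereas the one over the last exon was the highest in the other libraries. The intervals over exons 1 and 4 also lay over exons of Gm26762, whose reads cannot be told apart from those of Gpi1 here. Tpi1, in contrast, was called over its last exon in every library and over exons 3 and 4 in miR-222-IP replicate 2 only (25.4).

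Gapdh, which couples oxidation of glyceraldehyde 3-phosphate to phosphate uptake, went against its place in the list. It had a single interval, chr6:125160763-125162013, with −log10 p values of 39.0 and 42.6 in the 2 control-IP libraries that had it, replicates 2 and 4, and 25.4 and 128 in the miR-222-IP libraries. Gapdh lies on the minus strand at chr6:125161715-125166467 and Iffo1, which encodes an intermediate filament family protein, on the plus strand at chr6:125145241-125161782, so that the 2 genes meet tail to tail. The peaks held 869, 884, 843 and 1015 bp of Iffo1 exons in the same 4 libraries. They held 299, 5, 42 and 63 bp of any Gapdh exon.

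Only the peak of control-IP replicate 2 reached the representative Gapdh transcript, over 160 bp of its 3′UTR. The coding sequence of Gapdh, of 1002 bp, had no base under a peak in any of the 5 libraries. The values above are therefore those of a peak centred on the 3′ exon of Iffo1, and Gapdh is counted among genes with a peak only by the bases at its end.

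Pgk1 and Pgam1 encode the kinase that makes the first ATP of the pathway's later part and the mutase that follows it. The values of Pgk1 were 92.2, 39.4 and 116 in the control-IP libraries and 115 and 151 in the miR-222-IP libraries. Pgam1 had 80.6, 32.4 and 34.3 in the control-IP libraries and 129 and 93.0 in the miR-222-IP libraries. Among the genes with a peak in all 5 libraries, Pgam1 was the one whose miR-222-IP values both lay above all 3 control-IP values as listed. For Pgk1 control-IP replicate 2 was the low library, and the other control-IP values overlapped with miR-222-IP replicate 1.

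The enolases make phosphoenolpyruvate, Eno1 being the widespread form and Eno3 the form of striated muscle. Eno1 had 80.4, 205.7 and 130.3 in the control-IP libraries and 115 and 191 in the miR-222-IP libraries, and control-IP replicate 2 was the highest of all. Eno3 was among the lowest of the genes, with 20.5, 23.0 and no peak in the control-IP libraries, and 25.7 and 81.0 in the miR-222-IP libraries. All but the last of these values lay close to the listing threshold of 20.

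The Eno3 peaks did not cover the same exons in all libraries. Control-IP replicate 1 and miR-222-IP replicate 1 had a peak over exon 9 only, and control-IP replicate 2 over exons 11 and 12. In miR-222-IP replicate 2 a peak spanned exons 7 to 9 (chr11:70660613-70661670), with the miR-222 word of exon 8 under it, and another spanned exons 10 to 12 with a value of 49.9. In control-IP replicate 3 a peak of 93372 bp (chr11:70638458-70731829) with a value of 139.6 covered all of Eno3 together with exons of other genes, 11 genes in all, and cannot be assigned to Eno3. The other 9 genes lie on chromosomes for which the list of control-IP replicate 3 held no peak.

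Pkm, whose product makes pyruvate and ATP, and Ldha, which turns pyruvate into lactate, had high values in every library, though Eno1 exceeded both in control-IP replicate 2. Pkm had 125, 203 and 153 in the control-IP libraries and 159.6 and 209 in the miR-222-IP libraries. Ldha had 142, 172 and 203 in the control-IP libraries and 189 and 205 in the miR-222-IP libraries. Values of both genes overlapped between the groups as listed. Among all coding genes with a peak, Ldha ranked from 69 to 268 over the 5 libraries and Pkm from 124 to 299, so each stood near the top of 4691 to 9802 genes. The plot of the highest peak by gene and library shows the order of the genes and the 2 missing values.

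**Figure D1:**
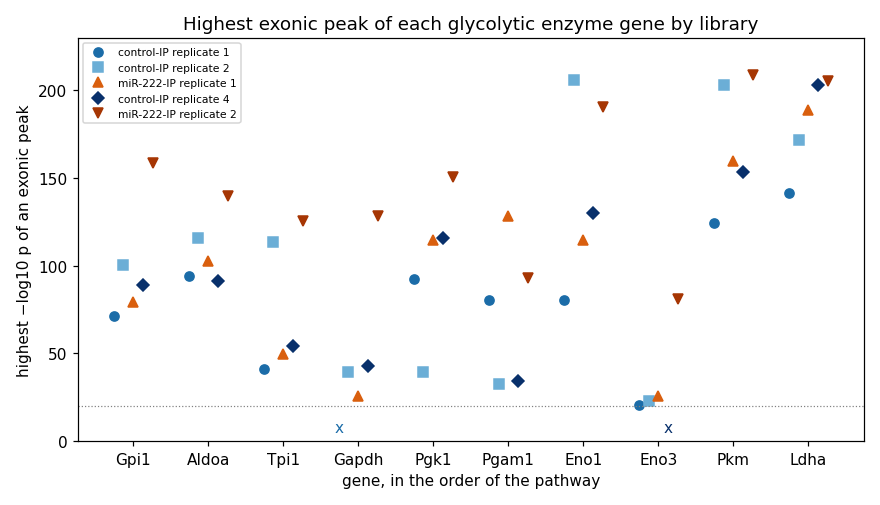
Highest −log10 p of a peak over an exon (vertical axis, no unit) for each gene in pathway order, with 1 point for each of the 5 libraries, blue for control-IP and orange for miR-222-IP. A cross marks a library with no peak, and the dotted line is the listing threshold of 20. Pkm and Ldha lie between 125 and 209 in all libraries, whereas Eno3 stays below 26 in all but miR-222-IP replicate 2.

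Pkm is spliced to hold one or the other of 2 alternative exons of equal length, which give the M1 form of adult muscle and the M2 form of proliferating cells. The downstream exon, chr9:59675568-59675734, carried in transcript Pkm-201 and giving the M2 form, had a peak in control-IP replicate 2 (21.03) and miR-222-IP replicate 2 (21.3). The upstream exon, chr9:59675029-59675195, carried in Pkm-202, had no peak in any of the 5 libraries. Both called values stood close to the threshold of 20, so the absence of a call over the upstream exon does not show that it was absent from the mRNA. Exons of another gene model, Gm49759, also lay under the peaks of the downstream exon. Further upstream in Pkm, exon 6 was called in all 5 libraries, with 26.0, 91.7 and 35.6 in the control-IP libraries and 56.4 and 92.0 in the miR-222-IP libraries.

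By transcript part, 20 of the 35 intervals (57.1%) lay in coding sequence only, as did 60.5% of all pairs. Another 9 spanned coding sequence and 3′UTR (25.7%, against 19.1%), namely the last-exon interval of each gene but Gapdh. A further 4 spanned coding sequence and 5′UTR (11.4%, against 6.76%). The single interval in 3′UTR only was that of Gapdh (11.7% of all pairs were of this kind), and the single one in 5′UTR only was exon 1 of Pkm (1.53%). None lay in exon bases outside these parts (0.493% of all pairs). The last exon was reached by 10 of the 35, or 28.6%, against 28.9% of all pairs. The highest peak of a gene reached its last exon for 7, 10 and 7 genes in the control-IP libraries and for 7 and 8 in the miR-222-IP libraries. Over all coding genes with a peak this share was 67.9%, 65.5% and 64.9% in the control-IP libraries and 67.1% and 67.2% in the miR-222-IP libraries.

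The intervals that recurred were mainly those at the 3′ end. A peak in all 5 libraries was found for 12 of the 35 intervals (34.3%, against 18.8% of all pairs), and 8 of these 12 reached the last exon. The other 4 were the intervals over exons 4, 5 and 6, and 12 of Gpi1 and exon 6 of Pkm. No interval seen in 1 library only reached the last exon. All 11 intervals of that kind were in miR-222-IP replicate 2 (31.4%, against 31.3% of all pairs), among them those over exons 1, 2 and 3 of Pgam1.

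Measured in bases, the 3′UTRs were covered more fully than the coding sequence. Of the 4866 bases of 3′UTR in the 10 representative transcripts, 66.5%, 76.1% and 69.7% lay under a peak in the control-IP libraries, and 71.3% and 76.7% in the miR-222-IP libraries. Of the 11898 bases of coding sequence, 18.7%, 20.2% and 20.1% lay under a peak in the control-IP libraries and 21.9% and 53.4% in the miR-222-IP libraries. Over all 10289 genes the share of 3′UTR bases was 14.2%, 19.0% and 21.1% in the control-IP libraries and 26.0% and 40.2% in the miR-222-IP libraries. The corresponding shares of coding bases over all genes were 8.29%, 16.0% and 15.6%, and 18.5% and 34.3%. The difference between 3′UTR and coding sequence was thus wider over the glycolytic mRNAs than over all genes in every library, which is a description without a test. The sets differ in 3′UTR length, with 16146676 bases over the 10289 genes against 4866 over the 10. The shares over all genes also include genes without a peak in the given library. The part of either in the difference was not tested.

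Individual genes differed in this respect. In Pgk1 the share of coding bases under a peak was 3.27% in 4 of the libraries and 25.4% in miR-222-IP replicate 2, while the 3′UTR was covered from 89.5% to 93.8%. Pgam1 had no coding base under a peak in 4 of the libraries and 100% in miR-222-IP replicate 2. Aldoa, by contrast, had 49.2% to 50.7% of its coding bases under a peak in 4 libraries and 94.98% in miR-222-IP replicate 2. The plot along the transcripts shows these stretches.

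**Figure D2:**
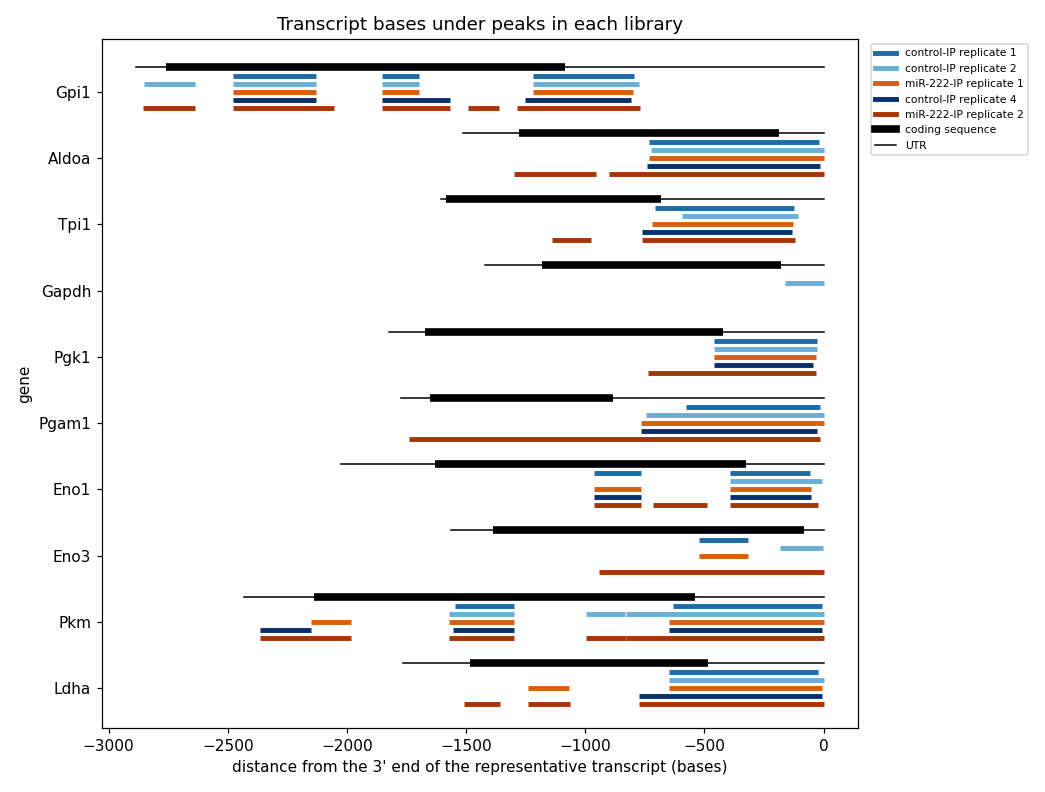
Stretches of each representative transcript under a peak in each library (coloured bars, 5 rows per gene), by distance from the 3′ end in bases, below a black line whose thick part is the coding sequence. The last exon was called in every library for 8 of the genes, and the coding sequence of Gapdh has no bar.

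Most of these mRNAs have copies in the genome. The share of 31-base words of the coding sequence that occurred elsewhere in the genome was 100% for Gapdh, Pgk1 and Pgam1, 89.6% for Eno1, 74.6% for Pkm, 62.7% for Ldha, 50.3% for Gpi1, 47.9% for Aldoa and 31.8% for Tpi1. In Eno3 it was 0. For the 3′UTR the share was 100% for Gapdh, 99.6% for Pgam1, 92.8% for Pgk1, 88.4% for Eno1, 60.7% for Pkm and 55.8% for Ldha. It was 46.9% for Tpi1, 34.8% for Aldoa, 28.7% for Gpi1 and 0 for Eno3. An annotated copy was taken as a pseudogene, or a gene of 1 coding exon, with at least 50% of its length aligned to one of the 10 transcripts more closely than to other enzymes of the pathway. There were 523 copies, of which 516 were annotated as pseudogenes and 407 were copies of Gapdh.

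Of the 523 copies, 72 had an exonic peak in at least 1 library and 26 in all 5. Among the 516 pseudogenes 71 had a peak, and over all annotated pseudogenes the share was 13.5%. Copies of Gapdh made up 49 of the 72, and 21 of the 26. By library, 23, 36 and 30 copies of Gapdh had a peak in the control-IP libraries and 26 and 45 in the miR-222-IP libraries. The copies with a peak lay on 18 chromosomes, and their identity to Gapdh had a median of 98.0% (range 84.7% to 99.9%), against a median of 87.7% for copies without a peak.

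The highest Gapdh copy exceeded the peak at the gene's own end in each of the 4 libraries that had that peak. In miR-222-IP replicate 2 this held for Gm5559 alone. Since the peak at the gene's end lay mainly over Iffo1, these values do not compare Gapdh with its copies. Gm13394, at chr2:28933610-28934609 and 99.9% identical, had 108, 71.4 and 73.2 in the control-IP libraries and 143 and 98.9 in the miR-222-IP libraries. Gm5559, at chr5:95861714-95862715, had 80.5, 65.3 and 85.3, and 106 and 147. Most of each of its peaks lay outside the annotated copy, and the part inside corresponded to 107 bases of the Gapdh transcript. Gm12070, at chr11:26786633-26787634, had 52.2, 96.5 and 93.7, and 96.4 and 107. Laid on the Gapdh transcript, the peaks of all its copies ended at position 1242 or before. Only control-IP replicate 2 had transcript bases under a peak at Gapdh itself, at positions 1261 to 1420. The lack of shared bases follows from these positions and says nothing on where reads were placed.

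**Figure D3:**
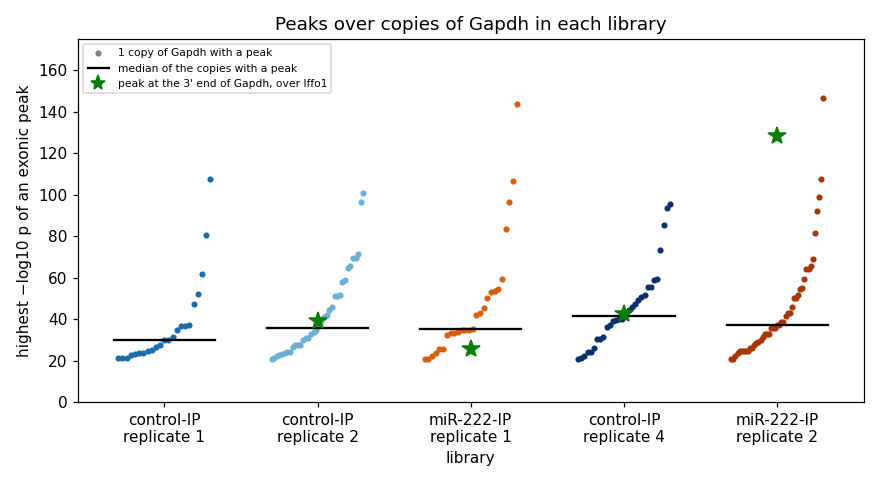
Highest −log10 p of each copy of Gapdh that had a peak (dots, sorted within a library), with the median of these copies as a black bar and the peak at the 3′ end of Gapdh as a star, for the 5 libraries. The medians lie between 29.8 and 41.5. The starred peak lies mainly over exons of Iffo1, and no star is drawn for control-IP replicate 1, where no peak touched Gapdh.

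The other genes had fewer copies in all, and fewer under peaks. Of the copies of Gapdh, 49 of 407 had a peak. The counts were 1 of 3 for Gpi1, 4 of 16 for Aldoa, 2 of 9 for Tpi1 and 3 of 10 for Pgk1. They were 2 of 9 for Pgam1, 2 of 17 for Eno1, 2 of 16 for Pkm and 7 of 36 for Ldha. Only bases within the annotated copies were laid on the transcripts, and these copies match mainly coding sequence. Pgk1-rs7, at chr12:10898986-10900240, 100% identical to Pgk1 over the aligned stretch, had 69.6, 30.99 and 93.2 in the control-IP libraries and 84.5 and 140.6 in the miR-222-IP libraries. Its 5 libraries stood in the same order as those of Pgk1. Its peaks corresponded to positions 179 to 1407 of the Pgk1 transcript of 1825 bases. Peaks were laid out only within the annotated copy, which does not extend to the miR-222 word at position 1699. This layout therefore does not show whether reads over that word also fit other loci.

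Gm4735, at chr2:80837141-80838442, 99.6% identical to Eno1, had 74.7, 175.1 and 129 in the control-IP libraries and 107 and 179.8 in the miR-222-IP libraries. Both Eno1 and this copy were lowest in control-IP replicate 1. Its peaks corresponded to positions 399 to 1700 of the Eno1 transcript of 2027 bases, where the representative transcript has its coding sequence. Gm1840, at chr8:5639580-5641011, 97.7% identical to Gpi1, had 45.5, 72.4 and 69.2, and 71.4 and 136. Gm6560, at chr5:22724578-22726168, 98.4% identical to Pkm, had 20.4, 90.4 and 30.6, and 38.2 and 73.7.

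The remaining genes were Pgam1, Aldoa, Tpi1, Ldha and Eno3. Pgam1-ps2, at chr7:27469771-27470535 and 100% identical to Pgam1, had no peak, 46.1 and 65.8 in the control-IP libraries, and 37.9 and 112 in the miR-222-IP libraries. Aldoart1, an intronless Aldoa copy annotated as coding, and Tpi-rs11 of Tpi1 each had a peak in 4 libraries, with highest values of 117.5 and 103 in miR-222-IP replicate 2. Ldha had 7 copies with a peak, of which Ldha-ps2 was called in all 5 libraries, with values from 24.3 to 59.4, and Gm9247 reached 141 in miR-222-IP replicate 2. Eno3 had no annotated copy, and its peaks are the ones among these genes that no copy shares.

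Of the bases of each transcript that peaks over its copies corresponded to, the share also under a peak at the gene itself in the same library was 15.9% for Pgk1, 17.4% for Eno1, 24.1% for Tpi1 and 29.5% for Pgam1. It was 38.8% for Gpi1, 42.5% for Ldha, 49.2% for Pkm and 75.3% for Aldoa. For all of these genes but Aldoa, less than 50% of the bases under copy peaks were thus also called at the gene. The shares count only bases within annotated copies, several of which extend little beyond coding sequence. The recurrent peaks of the genes themselves reached the 3′UTR, so a low share does not show where reads were placed. How the aligner placed reads that fit several loci is not given in the sources used here, and its part in the uncovered coding sequence was not tested.

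The comparison of miR-222-IP with control-IP asked whether these mRNAs gained Ago2 signal when miR-222 was raised. It used the highest −log10 p of a gene, divided by a factor for each library, and the mean over experiments of the log2 ratio. The factors ran from 0.667 in control-IP replicate 1 to 1.58 in miR-222-IP replicate 2. A ratio was formed for the 8 genes with a peak in all 5 libraries, among 4160 such coding genes. Since control-IP replicate 3 was kept apart, the only control-IP of experiment 2 in this comparison was replicate 4. With labels permuted within experiments there are 6 arrangements, so the smallest p that this exact permutation test can give is 0.167.

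Pgam1 had the highest mean log2 ratio, 0.70, with 0.71 in experiment 1 and 0.69 in experiment 2 (exact permutation p = 0.333, two-sided). It was the 1 gene of the 8 with miR-222-IP above every control-IP of the same experiment in both experiments, where the share over all genes was 15.7%. Its control-IP replicates 1 and 2 differed by 1.93 on the log2 scale after scaling, more than the ratio itself, which was 1.33 without replicate 1 and 0.36 without replicate 2. The count above every control-IP became 0 when libraries were scaled by their total and when all peaks of a gene were summed.

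Pkm had ratios below 0 in both experiments, with a mean log2 ratio of -0.31 (-0.32 and -0.30; exact permutation p = 0.167, two-sided, the smallest possible). Eno1 had a mean of -0.36 (-0.53 and -0.20) and Aldoa of -0.24 (-0.35 and -0.13). These 3 genes lay below every control-IP of the same experiment in both experiments, where the share over all genes was 17.2%. Without scaling and at a threshold of 50 this count was 0, and with summed peaks it was 1. Ldha had a mean of -0.40, with -0.06 and -0.73 in the 2 experiments. With 1 experiment left to compare, its ratio was -0.061 without control-IP replicate 4, -0.050 without miR-222-IP replicate 2 and -0.74 without miR-222-IP replicate 1. These values largely repeat the ratios of the single experiments. The mean of Eno1 became -0.17 without control-IP replicate 2. In sign, 1 of 8 genes was positive in both experiments (25.4% of all genes) and 4 of 8 were negative in both (29.1%).

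For the other 3 genes the ratios of the 2 experiments had opposite signs. Tpi1 had -0.85 in experiment 1 and 0.47 in experiment 2, Pgk1 0.33 and -0.37, and Gpi1 -0.42 and 0.087. Pgk1, which carries the miR-222 word in its 3′UTR, had a mean of -0.02. The median of the 8 means was -0.22, against -0.02 over all 4160 genes, whose means had a standard deviation of 0.36. Between the 2 control-IP libraries of experiment 1 the scaled log2 difference had a standard deviation of 0.76 over genes, larger than any of the 8 means. Of the 4 genes with both ratios below 0, the control-IP difference was smaller in size than the mean for Pkm (-0.09) and Ldha (0.34). It was larger for Aldoa (0.31) and Eno1 (-0.74). Without scaling, 7 of the 8 means changed sign and became positive.

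**Figure D4:**
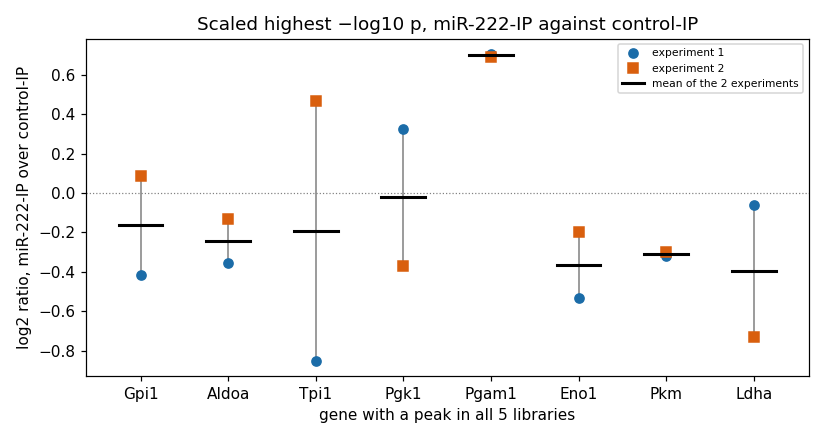
Log2 ratio of miR-222-IP to control-IP of the scaled highest −log10 p for the 8 genes with a peak in all 5 libraries, in experiment 1 (circle) and experiment 2 (square), with their mean as a black bar. The 2 experiments lie close together for Pgam1 and Pkm and on both sides of 0 for Tpi1, Pgk1 and Gpi1.

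Eno3 and Gapdh had no ratio, since each lacked a peak in 1 library. For Eno3 the listed values of miR-222-IP exceeded those of control-IP in both experiments, 25.7 against 20.5 and 23.0 in experiment 1, and 81.0 against no peak of the narrow library in experiment 2. Divided by the library factors, the order in experiment 1 changed, with control-IP replicate 1 at 30.7 above miR-222-IP replicate 1 at 24.8.

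A list of 29 other genes of glycolysis, its regulators and sugar or lactate transport was examined beside the 10. A peak was found for 18 of them in at least 1 library and for 6 in all 5. By role, 11 of 19 enzymes, 2 of 5 regulators and 5 of 5 transporters had one. Hk2, the hexokinase of muscle, had 91.3, 162 and 128 in the control-IP libraries and 129 and 140.0 in the miR-222-IP libraries. Slc2a1, a glucose transporter, had 63.6, 76.4 and 89.2, and 82.4 and 135.

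Forms of the same enzymes differed from each other. Ldhb, the lactate dehydrogenase form of oxidative tissue, had 242, 219 and 132 in the control-IP libraries and 262 and 174 in the miR-222-IP libraries, above Ldha in experiment 1 and below it in experiment 2. Aldoc, the aldolase of brain, had 55.7, 104.5 and 29.8, and 57.9 and 48.5, below Aldoa in each library. Pgam2, the muscle phosphoglycerate mutase, had no peak in the control-IP libraries and 20.0 and 154 in the miR-222-IP libraries. Pfkm, the muscle phosphofructokinase, had a peak in 3 libraries, at 39.5 and 21.5 in control-IP (replicates 2 and 4) and at 29.0 in the second miR-222-IP library. Eno2, the neuronal enolase, had a single peak, of 24.4, in miR-222-IP replicate 1.

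The summed myocyte markers, beside which the 2 values of Pgam2 stand, were 406 and 1068 in the miR-222-IP libraries and from 253 to 286 in the control-IP libraries. These sums were not divided by the library factors, which ran from 0.667 in control-IP replicate 1 to 1.58 in miR-222-IP replicate 2. The first Pgam2 value, 20.0, lay at the listing threshold of 20. Eno3, the muscle enolase, was likewise highest in miR-222-IP replicate 2. The part of muscle differentiation or of list length in these values was not tested.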

How the data were processed

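Ago2 RISC-IP RNA from 6 libraries was amplified with a kit that does not mark strand and sequenced as paired reads of 100 cycles. Per the labels and methods, the authors aligned reads to mm10 with SOAPSplice, converted them with bedtools, ran MACS2 with its defaults on each library and deposited the peaks with a −log10 p value above 20. The MACS2 version, the background track and the treatment of reads with several loci are not given in the sources used here. Read counts per peak were not used here, so depth is known only as the length of each list.

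Peaks were joined to GENCODE M21 exons by an overlap of at least 1 bp. The 10 member transcripts had the same sequence in GENCODE and in the GRCm38 genome used. Library factors were medians of ratios over the 4160 coding genes with a peak in all 5 libraries. Copies were found with blastn 2.17.0 (E-value at most 1e-10), and words of 31 bases were counted in the genome on both strands. Scripts (Python 3.11.15, numpy 2.4.6, pysam 0.24.0) were tested on simulated data. Ratios were tested by exact permutation within experiments, since the unit is a score without counts.

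The named genes are the 10 members, 7 genes of a fixed list of 29 others, and up to 3 copies per member with the highest −log10 p. Iffo1, Gm26762, Gm49759 and Ldha-ps2 were named after their values were seen. The members and lists were chosen with earlier results of these data known. Alternatives were the threshold, the overlap, the merging distance, the transcripts used, the scaling, the value per gene, missing libraries, the experiment block, the wide library, the word length, the definition of a copy and each library left out. The mature sequences of miR-1a and miR-133a were not used here.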

Additional observations from a re-analysis of the deposited data

Results flagged for a closer look

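For 2 genes miR-222-IP stood on opposite sides of all control-IP libraries compared in the 2 experiments, a difference that was not tested. In experiment 2 the only control-IP library compared was replicate 4. Tpi1 had a log2 ratio of -0.85 in experiment 1 and 0.47 in experiment 2. Gpi1 had -0.42 in experiment 1 and 0.087 in experiment 2.

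Control-IP replicate 3, which was kept out of the comparisons of the 5 libraries, listed a region over Eno3 at a −log10 p of 139.6. That region was 93372 bp wide and covered exons of 11 genes, so its value does not belong to Eno3 alone.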

How the results depend on the processing

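With a threshold of 50, 5 genes had a peak in all libraries, 10 intervals lay in coding sequence only, 0 genes were above every control-IP and 31 copies had a peak. Counting representative transcripts only raised the median share of exon bases under a peak from 17.5% to 32.3%, by the smaller number of bases counted. The 6-base word of miR-222 was found in 5 intervals. With the same number of peaks per library (10579), an alternative chosen after seeing the data, 7 intervals lay in coding sequence only, 0 genes were above every control-IP and 40 copies had a peak. Without scaling, the median log2 ratio was 0.29 and 3 genes were above every control-IP, with Gpi1 at 0.36, Aldoa 0.29, Tpi1 0.29, Pgk1 0.59, Eno1 0.12, Pkm 0.20 and Ldha 0.14. Genes above every control-IP numbered 0 with scaling by total, with summed peaks and without the experiment block, and 2 with the width-weighted mean. Genes below every control-IP numbered 0 without scaling and at a threshold of 50, 1 with summed peaks, 2 without the block and 4 with scaling by total.

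Leaving out each library in turn gave 8 to 9 genes with a peak in all remaining libraries, 11 to 20 coding intervals (11 without miR-222-IP replicate 2), 1 to 3 genes above every control-IP (3 without miR-222-IP replicate 1), 3 to 5 below (5 without any one library but control-IP replicate 1), and a median ratio from -0.33 to -0.16. Only 1 experiment held both groups without control-IP replicate 4 or without either miR-222-IP library, so those counts and ratios rest on it alone. With miR-222-IP replicate 1 left out it was 1 library against 1, where a gene must lie above or below. Ratios ranged from -0.42 to 0.083 for Gpi1, from -0.85 to 0.46 for Tpi1, from -0.38 to 0.58 for Pgk1, from -0.74 to -0.050 for Ldha, from -0.53 to -0.17 for Eno1, from -0.36 to -0.14 for Aldoa and from -0.33 to -0.30 for Pkm. Gpi1 also changed sign with a threshold of 50 (0.071), the width-weighted mean (0.15) and the last-exon peak (0.22). Pgk1 changed sign without the block (0.043), with equal numbers of peaks (0.020) and with the last-exon peak (0.0017). Pgam1 stayed positive in all 13 settings that gave it a value (0.30 to 1.33). Eno3, which lacked a peak in 1 library, had ratios of 0.59 with the lowest listed value in its place, -0.47 with control-IP replicate 3 included and -0.10 without control-IP replicate 4. The value of -0.47 uses the 93372 bp region of control-IP replicate 3, which does not belong to Eno3 alone. That of -0.10 comes from experiment 1 only. The causes were not tested. No paired analysis was possible because the labels give no replicate numbers, so experiment served as the block. The number of peaks per library limits these counts.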
